A study of Mus musculus with 82 samples.

Results

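The interferon response genes described here are 31 mouse genes whose transcription is known to be switched on by interferons. They were taken from a list of names, matched to the gene symbols without regard to case, and all 31 were found in each of the 8 deposited tables, among 78308 symbols in all. Interferons are secreted proteins that bind cell-surface receptors, and the receptors activate kinases that phosphorylate STAT proteins. A complex that holds STAT2 and IRF9 binds the interferon-stimulated response element (ISRE) in front of many target genes, and the gamma-activated site (GAS) is the element known from the response to interferon gamma. In peripheral nerve these genes can be transcribed by Schwann cells, fibroblasts, endothelial cells and the macrophages that enter after damage.

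The study measured RNA in mouse sciatic nerve, in 82 libraries of 22 groups, under a series title that concerns the transcription factor Mitf, Schwann cells and nerve repair. Fig4 +/+ and Fig4 -/- nerves were compared at postnatal day 12 and at postnatal day 4, with 3 libraries in each group. DhhCre nerves were compared with Mitf nerves at postnatal day 21 (5 libraries each), and Egr2Cre nerves with Mitf nerves at postnatal day 12 (3 libraries each). Nerves labelled Mitf were taken uninjured or 3 days after injury (4 libraries each), and Wild type and Mutant nerves at 3, 7 and 14 days after injury (3 libraries each). Nerves labelled Egr2Cre Mitf were set against Mitf nerves with no age or injury in the label (3 libraries each). The last table held control and Mitf nerves (6 libraries each) and Ndrg1 and Mitf-Ndrg1 nerves (5 libraries each), also with no age or injury given. In DhhCre and Egr2Cre lines the Cre recombinase is driven from Dhh or Egr2, both of which Schwann cells transcribe. The labels do not say which nerves carry an altered Mitf gene, what the Mutant is, or what kind of injury was made.

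The libraries held 15438783 to 34531474 estimated counts. The level of Fig4 was 18.2 to 32.4 CPM (counts-per-million, scaled for composition) in the Fig4 +/+ libraries and 3.04 to 5.87 CPM in the Fig4 -/- libraries. Ndrg1 was at 1441 to 2052 CPM in the control and Mitf libraries of the last table and at 160.5 to 191.3 CPM in the Ndrg1 and Mitf-Ndrg1 libraries. Mitf was lower in DhhCre than in Mitf nerves (5.74 ± 1.05 and 19.7 ± 1.69 CPM, SD, n = 5 each), and lower in Mitf than in control nerves of the last table (12.3 ± 1.66 and 18 ± 2.2 CPM, SD, n = 6 each), so the group labelled Mitf had the higher Mitf level in the first and the lower in the second. Myelinating Schwann cell markers were present in every table, with sums of 558.4 CPM (Wild type, 7 days after injury) to 235600 CPM (Mitf, postnatal day 12). Skeletal muscle markers reached 152400 CPM 14 days after injury, and 28 libraries held both Xist and Ddx3y at 1 CPM or more. The labels number the replicates but do not say that they are separate animals. Each p-value therefore sets a difference against the spread between libraries, not between known animals. In the time course and in the last table that spread was estimated over all groups of the table.

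Per kilobase of exon, Ifitm3 stood highest among the members in control nerves of the last table (98.5 CPM per kilobase) and Mx1 lowest (0.172 CPM per kilobase). Ifitm3 encodes a membrane protein that blocks virus entry, and Mx1 a dynamin-like GTPase. Bst2, which encodes tetherin, followed Ifitm3 at 24.1 CPM per kilobase. The ligands themselves were almost without counts where listed. Of 20 interferon genes searched for, Ifng was listed in 7 tables (60 libraries) and each other in 6 (54 libraries). In these libraries 6 of the 20 had a count. The highest level was 0.369 CPM, for Ifng in a Wild type library 14 days after injury. None of the 20 passed the filter on low counts. None was listed in the table that holds the Ndrg1 nerves, so their levels there are not known.

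Many of the members share a promoter sequence. The RefSeq promoter table (GRCm38.p6, 250 bases before to 50 bases after each gene start) held 24 of the 31 members. The ISRE core, GAAA and GAAA parted by any 2 bases and read on either strand, was present in 15 of the 24 (62.5%), against 3.99% of all 27025 genes with such a promoter and 3.44% of all 32851 promoters of 300 bases. Among 53 other interferon-stimulated genes it was present in 27 (50.9%). The GAS core TTCNNNGAA was present in 7 of the 24 members (29.2%), against 9.55% of all genes and 8.3% of all promoters. Both motifs occurred in 5 member promoters, and their letters overlapped in 2 of these. The windows of 150 bases before the RefSeq gene start follow, 5′ to 3′ on the gene's own strand, for members that the comparisons turn on, with each ISRE core in capitals.
Rsad2: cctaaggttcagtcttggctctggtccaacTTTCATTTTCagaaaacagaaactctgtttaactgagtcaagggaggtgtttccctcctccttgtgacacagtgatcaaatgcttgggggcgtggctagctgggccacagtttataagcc
Ifit1: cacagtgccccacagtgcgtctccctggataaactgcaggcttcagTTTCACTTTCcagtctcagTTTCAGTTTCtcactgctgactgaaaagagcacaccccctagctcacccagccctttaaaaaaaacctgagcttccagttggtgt
Irgm1: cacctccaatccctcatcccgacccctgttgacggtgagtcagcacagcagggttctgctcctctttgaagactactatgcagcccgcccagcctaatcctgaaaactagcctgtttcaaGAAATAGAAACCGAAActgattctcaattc
Gbp3: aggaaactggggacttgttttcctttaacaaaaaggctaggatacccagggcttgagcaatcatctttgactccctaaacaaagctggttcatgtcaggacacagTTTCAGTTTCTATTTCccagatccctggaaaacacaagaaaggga
Oas1a: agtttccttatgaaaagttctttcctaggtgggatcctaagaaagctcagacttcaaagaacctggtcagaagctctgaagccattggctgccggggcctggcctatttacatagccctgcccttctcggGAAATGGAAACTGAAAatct
Psmb8: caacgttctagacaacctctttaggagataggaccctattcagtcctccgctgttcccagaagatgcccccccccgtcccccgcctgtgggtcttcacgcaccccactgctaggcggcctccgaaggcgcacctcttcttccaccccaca

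These windows lie at chr12:26456453-26456602 on the minus strand for Rsad2 (viperin, a radical SAM enzyme that makes a chain-terminating nucleotide), chr19:34640739-34640888 on the plus strand for Ifit1 (a protein that binds viral RNA caps) and chr11:48871421-48871570 on the minus strand for Irgm1 (an immunity-related GTPase). They lie at chr3:142559894-142560043 on the plus strand for Gbp3 (a guanylate-binding protein), chr5:120907526-120907675 on the minus strand for Oas1a (which makes 2′,5′-linked oligoadenylates) and chr17:34198045-34198194 on the plus strand for Psmb8 (an immunoproteasome subunit). Irgm1, Gbp3 and Oas1a each have 2 cores whose letters overlap, whereas Ifit1 has a pair of separate cores. The window of Psmb8 holds no ISRE core and 1 GAS core, whose first base is at -97 from the RefSeq start. A second annotation, GENCODE, starts Psmb8 at chr17:34197721 and Irgm1 at chr11:48871683, so these 2 windows lie inside the genes as annotated there. Sequence before those starts was not searched for Psmb8, so an ISRE core there is not excluded. Several members are neighbours: Ifit1, Ifit2 and Ifit3 lie on chromosome 19, Gbp2, Gbp3 and Gbp7 on chromosome 3, and Psmb8, Psmb9 and Tap1 on chromosome 17. Some transcripts share sequence with a close copy: 68.8% of the 31-base words of Oas1a and 61.8% of those of Ifit3 occur in another gene, most of all in Oas1g and Ifit3b, so the levels of Oas1a and Ifit3 are uncertain. The other 7 members, Mx1, Mx2, Usp18, Ifi27l2a, Rtp4, Dhx58 and Parp14, had no entry in the promoter table.

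In all, 643 of 651 pairs of a member and a comparison could be tested, with Mx1 and Mx2 too low in some tables. Of these, 97 passed an adjusted p of 0.05 in edgeR's quasi-likelihood test, 77 of them higher and 20 lower in the first-named group. 28 of the 31 members were called at least once. Of all genes, 60.5% were called in Ndrg1 against control nerves alone. The share of all genes called at least once was not computed, so this count sets the members apart from no other genes. Ddx58, Ifit3 and Oasl2 passed in no comparison. Gbp2, Gbp3, Gbp7, Ifitm3, Irf9, Irgm1, Psmb8 and Psmb9 were each called higher in 5 comparisons, and Ifit2 was called lower in 4. These tallies include comparisons with Ndrg1 or Mitf-Ndrg1 nerves that share libraries.

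**Figure D1:**
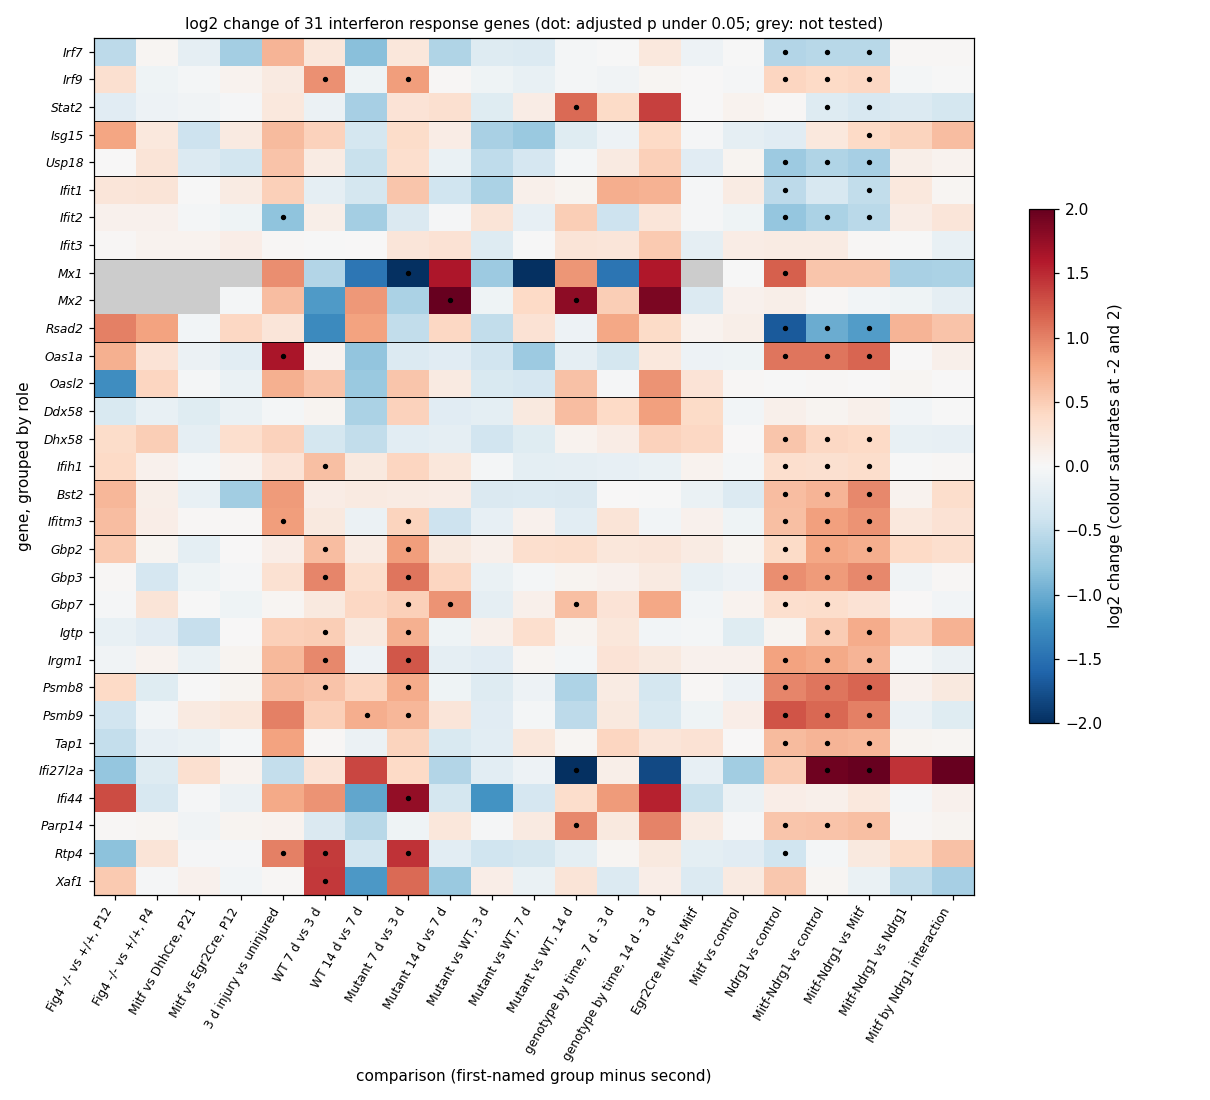
Log2 change of each of the 31 genes (vertical axis, grouped by role) in each of the 21 comparisons (horizontal axis), first-named group minus second. Black dots mark an adjusted p under 0.05 in edgeR's test and grey cells were not tested; the dots gather in the 7 day minus 3 day comparisons and in the comparisons of Ndrg1 or Mitf-Ndrg1 nerves with control or Mitf nerves, where the antigen processing genes are red and Rsad2, Ifit2 and Usp18 are blue.

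In nerves labelled Ndrg1, the 3 genes of antigen processing, the 3 guanylate-binding proteins, Irgm1 and both membrane factors were higher than in control nerves, whereas Rsad2, Ifit1, Ifit2, Usp18, Irf7 and Rtp4 were lower. Other roles held calls in both directions: of the transcription factors Irf9 was higher and Irf7 lower, and Mx1 was higher where Rsad2 was lower. Whether roles differed was not tested. The call counts were 15 higher and 6 lower of 31, or 67.7%, and 60.5% of all 15910 genes tested were called in this comparison, 30.8% higher and 29.7% lower. The share of members called was therefore near that of all genes. The median log2 change of the members was 0.34, against 0.02 over all genes tested, and 0.23 without Ndrg1 replicate 3. Sex-linked Xist was at 0.125, 0.294, 0.0416, 593.5, 196.6 and 0 CPM in control nerves. It was at 0.232, 374.1, 480.8, 388.7 and 91.35 CPM in Ndrg1 nerves, and at 0.464, 587.5, 362, 338.1 and 377.3 CPM in Mitf-Ndrg1 nerves. The mix of sexes was thus uneven between control and these groups, and its part in the differences was not tested.

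Psmb8 and Psmb9 encode immunoproteasome subunits, and Tap1 a subunit of the transporter that moves peptides into the endoplasmic reticulum; all 3 were higher. Psmb8 was at 13.7, 14.3 and 14.7 CPM (lowest, median and highest of 6) in control nerves and at 23.8, 29.6, 27.2, 25.3 and 34.5 CPM in Ndrg1 nerves. Every Ndrg1 library lay above every control library. The log2 difference of Psmb8 was 0.97 (SE 0.101, adjusted p = 1.15e-08, edgeR). Psmb9 differed by 1.26 (SE 0.172, adjusted p = 8.53e-07) and Tap1 by 0.63 (SE 0.119, adjusted p = 6.76e-05) in the same test.

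The guanylate-binding proteins and immunity-related GTPases were higher for 4 of 5. Irgm1 was at 6.46, 7.64 and 8.47 CPM (lowest, median and highest) in control nerves and at 11.8, 12.3, 14.4, 13.1 and 14.2 CPM in Ndrg1 nerves, without overlap. Its log2 difference was 0.80 (SE 0.106, adjusted p = 5.24e-07, edgeR). Gbp3 differed by 0.93, Gbp2 by 0.38 and Gbp7 by 0.34, and the call for Gbp7 was lost without control replicate 1 or without Ndrg1 replicate 3 (0.18 without the latter). Igtp, the other immunity-related GTPase, differed by 0.05 and did not pass.

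Both membrane restriction factors were higher. Ifitm3 was at 61.1, 68.0 and 70.4 CPM (lowest, median and highest) in control nerves and at 103.6, 98.9, 94.5, 102.2 and 108.8 CPM in Ndrg1 nerves. The groups did not overlap, and the log2 difference was 0.61 (SE 0.0634, adjusted p = 1.30e-08, edgeR); 20.5% of the 31-base words of Ifitm3 occur in other genes. Bst2 differed by 0.61, with 1 control library, replicate 5, inside the range of the Ndrg1 libraries. Oas1a (1.07, SE 0.212), Mx1 (1.19), Parp14 (0.55, a mono-ADP-ribosyltransferase), Dhx58 (0.56), Ifih1 (0.33) and Irf9 (0.43) also passed as higher on the log2 scale; Dhx58 and Ifih1 encode the RNA sensors LGP2 and MDA5. The call for Ifih1 was lost with the replicate number as a block, without control replicate 1, 3 or 4, and without Ndrg1 replicate 3 (0.20).

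Of the 6 members that were lower, Rsad2 and Ifit2 had the smallest p. Rsad2 was at 3.18, 3.48 and 4.07 CPM (lowest, median and highest) in control nerves and at 1.30, 1.25, 0.983, 1.07 and 0.885 CPM in Ndrg1 nerves. All Ndrg1 libraries were below all control libraries, with a log2 difference of -1.68 (SE 0.178, adjusted p = 1.68e-08, edgeR). Ifit2 was at 38.6, 45.5 and 52.2 CPM in control nerves and at 28.8, 23.02, 29.8, 27.6 and 22.3 CPM in Ndrg1 nerves, again without overlap, and differed by -0.78 (SE 0.102, adjusted p = 4.91e-07).

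Usp18, the protease that removes ISG15 and dampens receptor signalling, was at 1.86, 3.09 and 3.64 CPM in control nerves and at 1.30, 1.91, 1.38, 2.18 and 1.87 CPM in Ndrg1 nerves. The 2 ranges overlapped, and the log2 difference was -0.72 (SE 0.201, adjusted p = 0.00327, edgeR). Irf7, the factor that amplifies type I interferon transcription, differed by -0.58 (-0.35 without control replicate 5), Ifit1 by -0.53 and Rtp4 by -0.40. The call for Ifit1 was lost without control replicate 3 or 5 or Ndrg1 replicate 1, 2 or 4. That for Rtp4 was lost without control replicate 4 or 5 or Ndrg1 replicate 1, 2 or 5, and in a fit of the compared groups alone. Isg15 itself differed by -0.23, Stat2 by 0.03, Ifit3 by 0.17, Ifi44 by 0.13, Mx2 by 0.12, Oasl2 by -0.01, Ddx58 by 0.10, Xaf1 by 0.53 and Ifi27l2a by 0.51, and none of these passed.

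**Figure D2:**
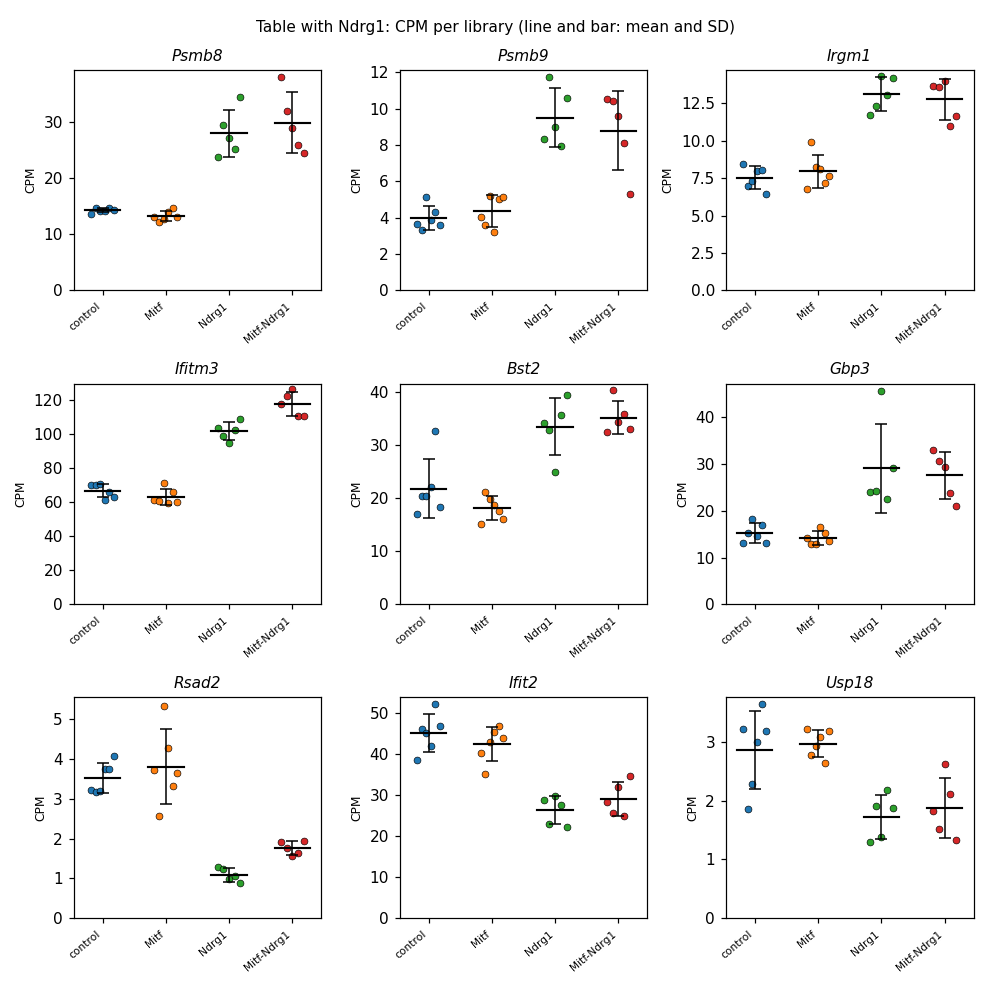
Level of 9 members in CPM (vertical axis, starting at 0) in each library of the control, Mitf, Ndrg1 and Mitf-Ndrg1 groups; the line and bar give the mean and SD of 6, 6, 5 and 5 libraries. Psmb8 and Ifitm3 are higher in every Ndrg1 and Mitf-Ndrg1 library than in any control or Mitf library, and Rsad2 is lower in each of them.

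Mitf-Ndrg1 nerves were set against the same control nerves, so this comparison shares its controls with the preceding comparison and is given beside it rather than as further evidence. Here 16 members were higher and 5 lower of 31, or 67.7%, and 59.1% of all genes were called, 30.6% higher and 28.5% lower. Psmb8 was at 38.1, 32.0, 29.0, 25.9 and 24.5 CPM in Mitf-Ndrg1 nerves (log2 difference from control 1.07, SE 0.101, adjusted p = 3.07e-09, edgeR). Ifitm3 was at 117.8, 122, 126.2, 110.5 and 110.7 CPM (0.81, SE 0.0634, adjusted p = 1.08e-10). Both were above all control libraries. Irgm1 was at 13.7, 13.6, 13.97, 10.96 and 11.7 CPM (0.76, SE 0.105, adjusted p = 1.32e-06), also without overlap.

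Among the lower members, Rsad2 was at 1.91, 1.77, 1.56, 1.63 and 1.94 CPM in Mitf-Ndrg1 nerves (log2 difference from control -0.998, SE 0.171, adjusted p = 2.23e-05, edgeR), below every control library. Ifit2 was at 28.3, 25.7, 32.0, 24.9 and 34.5 CPM (-0.63, SE 0.102, adjusted p = 1.02e-05), and Usp18 at 1.83, 1.52, 2.63, 2.11 and 1.33 CPM (-0.61, SE 0.199, adjusted p = 0.0114). Ifit2 did not overlap the control range and Usp18 did. Irf7 (-0.56) and Stat2 (-0.25) were the other members called lower, and each lost its call without a single library, control replicate 5 for Irf7 (-0.33 without it) and Mitf-Ndrg1 replicate 3 for Stat2. Igtp (0.51) and Ifi27l2a (1.95) were called higher here, as were Psmb9 (1.14), Tap1 (0.68), Gbp2 (0.78), Gbp3 (0.86), Gbp7 (0.35), Bst2 (0.69), Irf9 (0.40), Oas1a (1.07), Parp14 (0.58), Dhx58 (0.42) and Ifih1 (0.32). The calls for Dhx58 and Ifih1 were each lost without control replicate 1, Mitf-Ndrg1 replicate 1 or Mitf-Ndrg1 replicate 2, that for Dhx58 also without control replicate 2, and that for Ifih1 also without control replicate 3 or 4 or Mitf-Ndrg1 replicate 4. The call for Dhx58 was also lost in a fit of the compared groups alone, and that for Ifih1 with the replicate number as a block and with skeletal muscle markers as a covariate.

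Against Mitf nerves, Mitf-Ndrg1 nerves had 16 members higher and 6 lower of 31, where 57.6% of all genes were called, 29.7% higher and 27.9% lower. Neither share of members, 67.7% against control and 71% against Mitf nerves, was far from that of all genes. Bst2 was at 15.1, 18.2 and 21.1 CPM (lowest, median and highest) in the 6 Mitf libraries and at 32.5, 40.3, 34.2, 35.8 and 33.0 CPM in the Mitf-Ndrg1 libraries. The groups did not overlap, and the log2 difference was 0.96 (SE 0.135, adjusted p = 1.58e-06, edgeR). Psmb8 differed by 1.17 and Ifitm3 by 0.90 in the same direction, with Mitf libraries at 12.2, 13.1 and 14.8 CPM and at 59.3, 61.1 and 71.4 CPM. Rsad2 (2.58, 3.69 and 5.33 CPM in Mitf nerves) differed by -1.11, and Ifit2 (35.1, 43.4 and 46.7 CPM) by -0.54. Stat2, the transactivating subunit of the STAT complex, was at 29.2, 31.03 and 34.96 CPM in Mitf and 29.7, 24.4, 21.8, 23.6 and 28.1 CPM in Mitf-Ndrg1 nerves and differed by -0.32. Of these only Stat2 overlapped, through 1 Mitf-Ndrg1 library. Isg15 (0.39) passed in this comparison, and its call was lost without Mitf replicate 1 or Mitf-Ndrg1 replicate 1, 2 or 3, with the replicate number as a block and in a fit of the compared groups alone. The calls for Ifit1 (-0.49), Ifih1 (0.36) and Dhx58 (0.40) were also lost without Mitf replicate 1, among other single libraries, and that for Ifit1 in a fit of the compared groups alone.

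In Mitf against control nerves of this table, 0 of 31 members and 0.00629% of all genes were called by edgeR. At an unadjusted p under 0.05 there were 1 member, Bst2, and 994 of all 15910 genes. DESeq2 called no member. Bst2 was at 17.1, 20.4 and 32.7 CPM (lowest, median and highest) in control nerves against 15.1, 18.2 and 21.1 CPM in Mitf nerves (log2 difference -0.27, SE 0.130, adjusted p = 0.787). Igtp was at 6.26, 8.13 and 9.75 CPM against 5.80, 7.03 and 8.26 CPM (-0.24, SE 0.122, adjusted p = 0.822). In both genes the ranges overlapped.

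Between Mitf-Ndrg1 and Ndrg1 nerves, edgeR called 0 of 31 members and 1.47% of all genes. An unadjusted p under 0.05 was found for 8 members and for 2797 of all 15910 genes. DESeq2 called 6 members, and its share over all genes is not given here. Rsad2 had the smallest p (log2 difference 0.68, SE 0.184, adjusted p = 0.0592), with every Mitf-Ndrg1 library above every Ndrg1 library. Gbp2 followed, at 31.8, 32.1, 32.2, 25.1 and 25.0 CPM in Mitf-Ndrg1 nerves and 21.5, 18.6, 29.6, 21.2 and 20.4 CPM in Ndrg1 nerves (0.40, SE 0.114, adjusted p = 0.0733), and 1 Ndrg1 library lay inside the Mitf-Ndrg1 range. The interaction of the Mitf and Ndrg1 labels called 0 of 31 members and 0.39% of all genes in edgeR. At an unadjusted p under 0.05 there were 8 members and 2213 of all 15910 genes, and DESeq2 called 3 members. Igtp gave an interaction of 0.69 (SE 0.179, adjusted p = 0.0739). Its CPM were 12.4, 12.7, 11.9, 11.7 and 9.52 in Mitf-Ndrg1 nerves and 8.73, 7.15, 6.95, 9.11 and 10.4 in Ndrg1 nerves, with 1 library of each group crossing into the other's range. Ifi27l2a gave 2.14 (SE 0.596, adjusted p = 0.108) and was at 57.8, 43.6, 12.7, 46.9 and 6.97 CPM in Mitf-Ndrg1 nerves against 7.94, 16.5, 13.6, 10.4 and 13.6 CPM in Ndrg1 nerves.

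Other genes of the pathway were read from companion lists. Of 15 genes for receptors and proximal signalling, 5 were higher and 3 lower in Ndrg1 than in control nerves. Irf8 and Irf5, transcription factors of the myeloid lineage, differed by 2.43 and 2.13 on the log2 scale, and Irf1 by 0.64. Of 16 tested genes for nucleic acid sensing, 13 were higher and 1 lower, among them Aim2 (2.77) and Tlr7 (1.73), which sense DNA and RNA. Of 62 tested other interferon-stimulated genes, 38 were higher and 7 lower, with Lgals9 at 1.44 and Slfn2 at 2.09. Of 19 tested genes of the MHC class I pathway, 9 were higher and 3 lower, Psme2 (0.80) and Nlrc5 (0.95) among the higher; Nlrc5 encodes the transactivator of MHC class I genes.

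Cell type markers moved with these differences. Of 18 macrophage markers, none of them at 0 in this table, 15 were higher and 2 lower in Ndrg1 than in control nerves, and their summed level was 679.1 to 860.2 CPM in control, 678.2 to 833.1 in Mitf, 4218 to 5340 in Ndrg1 and 4424 to 5792 in Mitf-Ndrg1 nerves. T and NK cell markers summed to 2.20 to 3.91 CPM in control nerves and 20.2 to 27.6 CPM in Ndrg1 nerves; 13 of the 17 markers were listed in this table, without Cd3e, Cd8b1, Gzmb and Prf1. Of the other lists, 4 of 5 monocyte markers were higher (median 3.51 on the log2 scale). Their sums were 8.15 to 13.3 CPM in control and 47.1 to 69.0 CPM in Ndrg1 nerves. Of 12 neutrophil markers, 8 were listed in this table and only 3 passed the filter on low counts. All 3 were higher (median 2.60), but a marker can pass that filter through the group where it is high. The 8 neutrophil markers summed to 1.56 to 3.16 CPM in control and 15.01 to 23.5 CPM in Ndrg1 nerves. Endothelial markers were lower for 11 of 12 (median -0.82), with sums of 501.3 to 585.6 CPM in control and 270.9 to 314.2 CPM in Ndrg1 nerves. All 12 myelinating Schwann cell markers were lower, with sums of 165900 to 196200 CPM in control and 49400 to 63580 CPM in Ndrg1 nerves. The part of these markers in the members' differences was not tested. In whole nerve, a change in the number of cells of a type and a change in RNA per cell cannot be told apart.

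After injury, GTPases, Irf9, Rtp4 and Psmb8 rose between 3 and 7 days in both genotypes of the time course. In Wild type nerves 9 of 31 were higher and 0 lower at 7 days, where 39.1% of all genes were called, 19.4% higher and 19.6% lower. In Mutant nerves 11 were higher and 1 lower, where 33.4% of all genes were called, 16.2% higher and 17.2% lower. The shares of members called, 29.03% and 38.7%, were thus no higher than about those of all genes, though nearly all these calls were higher. The median log2 change of the members was 0.20 and 0.44, against 0.04 and 0.00058 over all genes. These medians were 0.60 and 0.91 with skeletal muscle markers as a covariate, and the Wild type median was 0.62 without 3 day replicate 1. The 2 comparisons share no library, and 7 members were called higher in both (77.8% of the Wild type calls and 63.6% of the Mutant calls): Gbp2, Gbp3, Igtp, Irf9, Irgm1, Psmb8 and Rtp4. The overlap over all genes was not computed, so whether that of the members is larger is not known.

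The GTPase group rose most completely, with 4 of 5 called in Wild type and 5 of 5 in Mutant nerves. Irgm1 was at 20.04, 12.8 and 14.9 CPM in Wild type nerves at 3 days and at 26.4, 40.8 and 25.8 CPM at 7 days (log2 change 0.97, SE 0.182, adjusted p = 0.000782, edgeR). In Mutant nerves it went from 14.9, 13.4 and 12.3 CPM to 33.6, 30.3 and 31.9 CPM (1.24, SE 0.184, adjusted p = 0.000166). The times did not overlap in either genotype. Gbp3 rose by 0.98 and 1.07 (0.62 in Wild type nerves without 7 day replicate 2), Gbp2 by 0.61 and 0.84, and Igtp by 0.49 and 0.72 in Wild type and Mutant nerves, and Gbp7 by 0.48 in Mutant nerves. The Wild type call for Gbp2 was lost without any 3 day library or without 7 day replicate 2, and that for Igtp without 3 day replicate 2 or 3 or 7 day replicate 2, with the replicate number as a block, without the low-count filter and in a fit of the compared groups alone. The Mutant call for Gbp7 was lost without any single library other than 7 day replicate 2, with the block and without the low-count filter. With skeletal muscle markers as a covariate the changes were larger, at 1.03 and 1.37 for Gbp2, 1.49 and 1.72 for Gbp3 and, in Mutant nerves, 0.94 for Gbp7.

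Irf9, the DNA-binding subunit of the STAT complex, went from 23.2, 16.1 and 16.4 CPM to 32.6, 43.9 and 28.3 CPM in Wild type nerves (log2 change 0.91, SE 0.173, adjusted p = 0.000803, edgeR). In Mutant nerves it went from 17.1, 17.8 and 17.6 CPM to 32.3, 30.3 and 31.7 CPM (0.84, SE 0.173, adjusted p = 0.00183). Every 7 day library was above every 3 day library. Its partner Stat2 did not pass between these times in either genotype, while Irf1 rose by 0.50 and 0.63. The changes of Irf8 were -0.13 and -0.52 and did not pass.

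Rtp4, a transmembrane protein that carries receptors to the surface and restricts some viruses, went from 11.8, 4.87 and 5.48 CPM to 17.2, 28.6 and 12.8 CPM in Wild type nerves (log2 change 1.404, SE 0.332, adjusted p = 0.00374, edgeR). In Mutant nerves it went from 6.00, 6.11 and 4.71 CPM to 17.1, 11.8 and 16.8 CPM (1.44, SE 0.335, adjusted p = 0.00405). Neither genotype showed overlap between the times. With skeletal muscle markers as a covariate the Mutant changes were 2.17 for Rtp4, 1.29 for Irf9 and 0.80 for Ifitm3. Psmb8 rose by 0.57 and 0.74, and Psmb9 by 0.66 in Mutant nerves; the Wild type call for Psmb8 was lost without 3 day replicate 2 or 3 or 7 day replicate 1 or 2, without the low-count filter, and without the 3 libraries richest in muscle RNA. The Mutant call for Psmb8 was lost without 3 day replicate 2 or 3, and that for Psmb9 without any single library other than 7 day replicate 3. Ifih1 and Xaf1, a gene linked to cell death, were called in Wild type nerves (0.60 and 1.41), and Ifi44 and Ifitm3 in Mutant nerves (1.75 and 0.44). The call for Ifih1 was lost without 7 day replicate 2, and that for Xaf1 without 3 day replicate 1 or 2 or 7 day replicate 1 and with the muscle covariate. The call for Ifi44 was lost without 3 day or 7 day replicate 1 or 3, and that for Ifitm3 without any single library other than 7 day replicate 2. The calls for Xaf1, Ifi44 and Ifitm3 were also lost without the low-count filter.

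Mx1 was the only member called lower in either of these comparisons, from 0.666, 0.728 and 0.424 CPM to 0.0545, 0.261 and 0.107 CPM in Mutant nerves (log2 change -2.04, SE 0.746, adjusted p = 0.0458, edgeR). Each value was below 1 CPM, and the call was lost without any single library other than 7 day replicate 2, with the replicate number as a block, with the muscle covariate, without the libraries richest in muscle RNA and without the low-count filter. In Wild type nerves Mx1 was at 1.95, 0.528 and 0.557 CPM at 3 days and 0.371, 1.13 and 0.464 CPM at 7 days, with overlap.

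Other pathway genes changed between the same times. Of 62 tested other interferon-stimulated genes, 21 rose and 2 fell in Wild type nerves, and 22 rose and 4 fell in Mutant nerves. Cxcl9, a chemokine that draws T cells, rose by 4.02 and 4.62 on the log2 scale, the GTPases Tgtp1 by 2.12 and 2.33 and Iigp1 by 2.07 and 2.12, and Irgm2 by 1.29 and 1.39. Of 14 negative regulators, 5 fell and 0 rose in Wild type and 4 fell and 0 rose in Mutant nerves, Socs1 (-0.55 and -0.58), an inhibitor of Janus kinases, among them. T and NK cell markers summed to 20.3 to 53.2 CPM in both genotypes at 3 days and to 98.6 to 545.6 CPM at 7 days. Of 17 such markers 12 passed the filter on low counts, and 9 and 7 of these were higher in Wild type and Mutant nerves. Of 18 macrophage markers, 0 were higher and 3 and 7 lower. Fibroblast markers were higher for 9 of 10 in each genotype, from 4241 to 5987 CPM at 3 days to 13010 to 20180 CPM at 7 days. Endothelial markers were higher for 3 of 12 in Wild type nerves (885.9 to 1007 CPM at 3 days, 946 to 1192 CPM at 7 days) and for 11 of 12 in Mutant nerves (608.5 to 951.9 CPM, then 1353 to 1814 CPM). Skeletal muscle markers went from 6.15 to 1940 CPM to 1238 to 32130 CPM. The part of these markers in the members' changes was not tested.

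**Figure D3:**
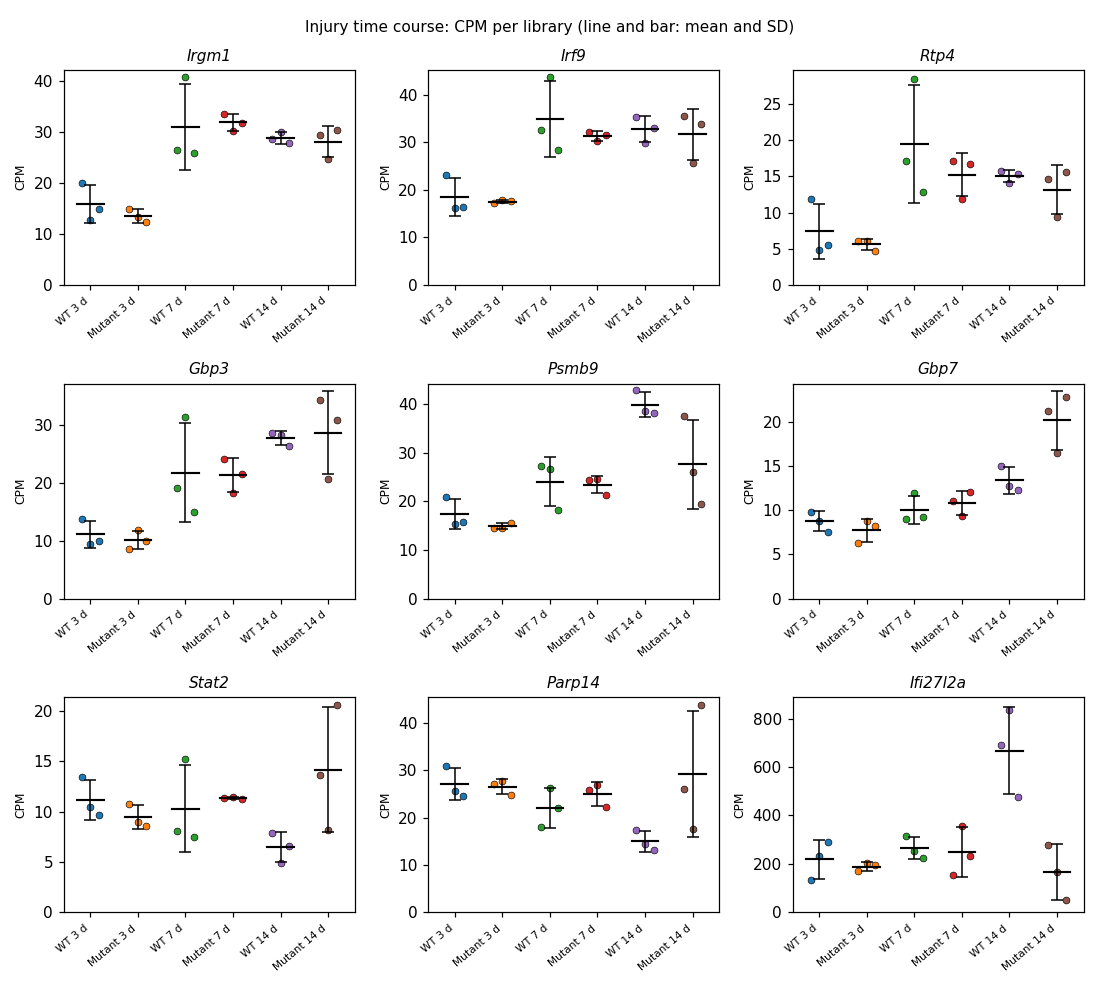
Level of 9 members in CPM (vertical axis, starting at 0) in each Wild type and Mutant library at 3, 7 and 14 days after injury; the line and bar give the mean and SD of 3 libraries. Irgm1, Irf9, Rtp4 and Gbp3 are higher at 7 days than at 3 days in every library of both genotypes, and Ifi27l2a is highest in the Wild type libraries at 14 days.

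From 7 to 14 days few members moved. In Wild type nerves 1 of 31 was higher, where 7.41% of all genes were called, 2.52% higher and 4.9% lower. Psmb9 went from 27.3, 26.6 and 18.2 CPM to 42.8, 38.6 and 38.3 CPM without overlap (log2 change 0.73, SE 0.205, adjusted p = 0.0448, edgeR). The call was lost without 7 day replicate 2 or 3 and without any single 14 day library. The count was 0 without the libraries richest in muscle RNA and 4 by DESeq2. In Mutant nerves 2 of 31 were higher, where 17.7% of all genes were called, 8.55% higher and 9.16% lower. Gbp7 went from 11.1, 9.35 and 12.03 CPM to 21.2, 16.5 and 22.8 CPM (0.90, SE 0.176, adjusted p = 0.00393), and Mx2 from 0.436, 0.105 and 0.374 CPM to 1.19, 1.16 and 2.04 CPM (2.25, SE 0.532, adjusted p = 0.0109). Neither overlapped, and neither passed in a fit of the compared groups alone.

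Mutant and Wild type nerves were compared at each time, a comparison of genotypes within the injury series. At 3 days 0 of 31 members and 0% of all genes were called by edgeR, and DESeq2 called no member. At an unadjusted p under 0.05 there were 1 member and 299 of all 15852 genes. Ifi44, a cytoplasmic protein of unclear function, was at 0.952, 2.79 and 1.70 CPM in Mutant and 8.18, 1.91 and 2.46 CPM in Wild type nerves, with overlap (log2 difference -1.19, SE 0.553). Bst2 was at 40.8, 36.3 and 32.9 CPM against 55.5, 35.8 and 42.8 CPM (-0.29, SE 0.183). At 7 days 0 of 31 members and 0% of all genes were called, and DESeq2 again called no member. At an unadjusted p under 0.05 there were 1 member and 2094 of all 15852 genes. Mx1 differed by -2.19 (SE 0.752, adjusted p = 0.274), and Igtp, at 21.3, 19.4 and 20.6 CPM against 14.3, 19.8 and 14.4 CPM, by 0.34 (SE 0.178).

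At 14 days 5 of 31 members were called, 4 higher and 1 lower in Mutant nerves, where 8.29% of all genes were called, 7.05% higher and 1.24% lower; the members' share was 16.1%. Ifi27l2a was at 690.7, 834.7 and 476.4 CPM in Wild type and 279.8, 167.5 and 49.8 CPM in Mutant nerves, without overlap (log2 difference -2.01, SE 0.475, adjusted p = 0.0212, edgeR). Parp14 was at 17.5, 14.4 and 13.2 CPM against 26.1, 17.6 and 43.8 CPM (0.96, SE 0.247, adjusted p = 0.0292). Stat2 was at 7.93, 4.94 and 6.54 CPM against 13.7, 8.19 and 20.6 CPM (1.13, SE 0.309, adjusted p = 0.0375). Neither overlapped, but the lowest Mutant library, replicate 2, stood close to the highest Wild type library for both. Mx2 was at 0.372, 0.443 and 0.445 CPM against 1.19, 1.16 and 2.04 CPM, without overlap. Mx2 (1.80, adjusted p = 0.0475) and Gbp7 (0.59, adjusted p = 0.0485) were the others called higher.

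These 5 calls depended on single libraries and on the fit. The count was 0 without Wild type replicate 2, without Wild type replicate 3 and without Mutant replicate 3, and 8 without Mutant replicate 2; the difference of Parp14 was 0.56 without Mutant replicate 3. It was also 0 without the 3 libraries whose muscle markers exceeded 50000 CPM, and 0 in a fit of the compared groups alone, where 0 genes of the whole table passed. With the replicate number as a block 1 was called, and 3 each with RLE scaling and without the low-count filter. Skeletal muscle markers at this time summed to 10310 to 120900 CPM in Wild type and 5826 to 152400 CPM in Mutant nerves, and neutrophil markers to 9.10 to 26.9 CPM and 19.8 to 217.1 CPM, with 2 of 9 tested higher in Mutant nerves. Sex-linked Xist was at 10.1, 7.75 and 3.43 CPM in Wild type and 62.06, 38.04 and 54.05 CPM in Mutant nerves, without overlap. Ddx3y was at 11.27, 24.93 and 41.43 CPM against 19.06, 5.36 and 6.97 CPM. These sex genes thus differed in part with genotype at this time. The part of sex and of the markers in the calls was not tested.

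The test of whether the 2 genotypes changed differently with time called 0 of 31 members and 0% of all genes for 7 days against 3 days, with none at an unadjusted p under 0.05 and none by DESeq2. Ifit2 had an interaction of -0.41 (SE 0.295, adjusted p = 0.926, edgeR) and Mx1 of -1.46 (SE 0.963, adjusted p = 0.908). Ifit2 was at 19.2, 13.3 and 11.8 CPM in Wild type and 17.4, 19.7 and 15.6 CPM in Mutant nerves at 3 days, and at 13.2, 18 and 16.8 CPM and 13.4, 16.7 and 13.0 CPM at 7 days. For 14 days against 3 days it called 0 of 31 members and 0.0568% of all genes. At an unadjusted p under 0.05 there were 5 members and 1883 of all 15852 genes, and DESeq2 called no member. Stat2 gave an interaction of 1.37 (SE 0.431, adjusted p = 0.246) and Gbp7 of 0.77 (SE 0.248, adjusted p = 0.254). With the level of skeletal muscle markers as a covariate, 4 members were called in this test.

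In nerves labelled Mitf, injury 3 days earlier was followed by changes in few members. Of 31, 3 were higher and 1 lower than in uninjured nerves, where 22.1% of all genes were called, 11.7% higher and 10.4% lower. The members' share of calls was 12.9%, below that of all genes. Of the 31 estimates 28 were above 0, with a median of 0.48 against 0.03 over all genes. Ifitm3 was at 106.6, 97.0, 103.6 and 121.4 CPM in uninjured and 150.7, 202.9, 214.2 and 199 CPM in injured nerves, with no overlap (log2 difference 0.84, SE 0.140, adjusted p = 0.00429, edgeR). Oas1a was at 2.05, 2.24, 4.51 and 4.71 CPM against 6.21, 8.70, 16.03 and 10.97 CPM, also with no overlap (1.63, SE 0.396, adjusted p = 0.0173). Rtp4 was at 4.98, 4.89, 7.04 and 8.49 CPM against 6.32, 14.8, 13.7 and 16.2 CPM, with injured replicate 1 inside the uninjured range (1.00, SE 0.323, adjusted p = 0.0492).

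Ifit2 went the other way, at 59.3, 56.1, 48.5 and 52.8 CPM in uninjured and 22.6, 26.1, 37.0 and 38.5 CPM in injured nerves (log2 difference -0.80, SE 0.178, adjusted p = 0.0125, edgeR). The groups did not overlap. Ifit2 encodes an RNA-binding protein of the same family as Ifit1 and Ifit3, which differed by 0.48 and 0.03 and did not pass. Of the 4 calls, those of Oas1a (adjusted p = 0.0618), Rtp4 (0.106) and Ifit2 (0.0581) were lost with skeletal muscle markers as a covariate. The call of Oas1a was also lost without uninjured replicate 2, and that of Rtp4 without any single library other than injured replicate 1 and with the replicate number as a block (adjusted p = 0.0516, edgeR). Without injured replicate 1, 7 members were called.

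**Figure D4:**
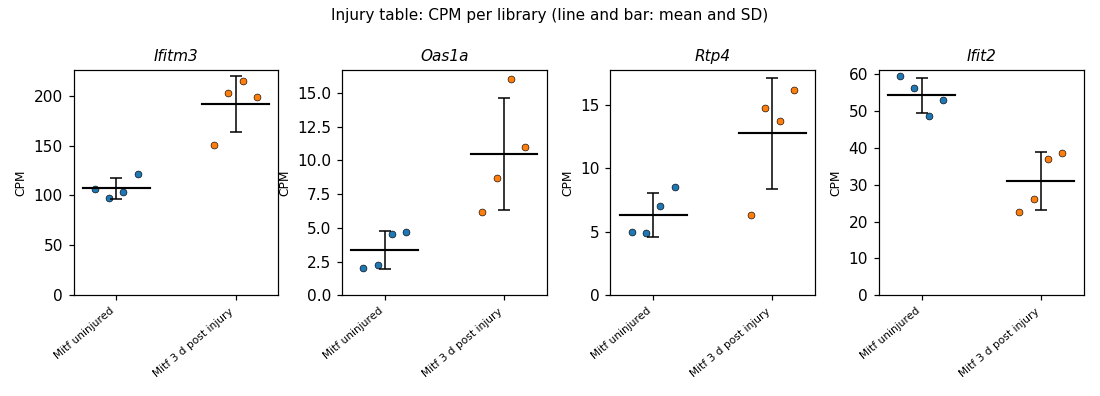
Level in CPM (vertical axis, starting at 0) of the 4 members called in this comparison, in each of the 4 uninjured and 4 injured libraries labelled Mitf; the line and bar give the mean and SD. Ifitm3 and Oas1a are higher and Ifit2 is lower in every injured library than in any uninjured library, and Rtp4 overlaps in 1 library.

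The same injury comparison called 8 of 16 tested sensing genes higher and 0 lower, among them Myd88 (0.99), an adaptor of Toll-like receptors, and Ifi204 (1.45). Of 14 negative regulators 6 were higher, Socs3 at 1.08. Cxcl10, a chemokine that is not a member, differed by 2.92 (adjusted p = 0.0117, edgeR), and Irf8 by 1.22, with Irf1 at 0.03. Macrophage markers summed to 672 to 1574 CPM in uninjured and 1238 to 3010 CPM in injured nerves, with 4 of 18 called higher and 0 lower, and monocyte markers to 10.3 to 26.0 CPM and 52.5 to 108 CPM. Skeletal muscle markers were at 11.7 to 2128 CPM and 5.89 to 17.6 CPM. The part of these markers was not tested.

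In Fig4 -/- nerves at postnatal day 12, edgeR called 0 of 29 tested members and 3.03% of all genes. At an unadjusted p under 0.05 there were 5 of these 29 members and 2468 of all 14338 genes. DESeq2 called 1 member. Ifitm3 was at 28.8, 27.2 and 30.0 CPM in Fig4 +/+ and 48.3, 49.3 and 34.0 CPM in Fig4 -/- nerves (log2 difference 0.61, SE 0.174, adjusted p = 0.0859). The groups did not overlap. Gbp2 was at 26.6, 24.4 and 20.6 CPM against 41.4, 24.4 and 37.1 CPM, with overlap (0.52, SE 0.208, adjusted p = 0.222). H2-D1, a classical MHC class I gene, was the 1 gene of that list called (0.92, adjusted p = 0.0132). Macrophage markers were called higher for 11 of 18, with sums of 658.8 to 795.7 CPM in Fig4 +/+ and 1162 to 1505 CPM in Fig4 -/- nerves. Ddx3y, a gene of the Y chromosome, was at 0 CPM in every Fig4 +/+ library and at 20.56, 91.35 and 45.88 CPM in the Fig4 -/- libraries. Genotype and sex therefore cannot be told apart in this comparison.

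At postnatal day 4, edgeR called 0 of 29 tested members and 0.00672% of all genes, with none at an unadjusted p under 0.05 and none by DESeq2. Gbp7 was at 7.51, 6.12 and 6.53 CPM in Fig4 +/+ and 7.60, 8.55 and 7.94 CPM in Fig4 -/- nerves (log2 difference 0.26, SE 0.145). The groups did not overlap, by a narrow margin. Dhx58 was at 1.85, 1.48 and 1.18 CPM against 1.91, 1.85 and 2.58 CPM (0.49, SE 0.285). Fig4 +/+ replicate 1 and Fig4 -/- replicate 3, which held 12900 and 10580 CPM of skeletal muscle markers, were each the highest library of their group for 21 of 28 members. Ddx3y was at 0.2461, 0 and 0 CPM in Fig4 +/+ and at 44.03, 50.69 and 0.3093 CPM in Fig4 -/- libraries. Sex thus differed in part with genotype here too.

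The Cre comparisons called no member. In Mitf against DhhCre nerves at postnatal day 21, edgeR called 0 of 29 tested members and 0.0143% of all genes, and DESeq2 called no member. At an unadjusted p under 0.05 there were 1 member and 408 of all 13943 genes. Ddx58, which encodes the RNA sensor RIG-I, was at 13.3, 14.8, 10.7, 13.7 and 13.6 CPM in DhhCre and 11.1, 10.9, 12.3, 10.2 and 11.1 CPM in Mitf nerves, with overlap through DhhCre replicate 3 (log2 difference -0.25, SE 0.0972). Isg15, the ubiquitin-like protein of the response, was at 8.03, 5.39, 4.12, 3.46 and 9.64 CPM against 4.52, 4.29, 2.96, 4.81 and 6.33 CPM (-0.42, SE 0.285). DhhCre replicate 5 was the highest library of its group for 25 of 28 members; Igtp was at 24.6 CPM in it against 6.92, 8.51, 7.10 and 6.37 CPM in the others.

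In Mitf against Egr2Cre nerves at postnatal day 12, edgeR called 0 of 30 tested members and 0.0139% of all genes, with none at an unadjusted p under 0.05 and none by DESeq2. Rsad2 was at 1.06, 1.31 and 1.12 CPM in Egr2Cre and 1.67, 1.38 and 1.60 CPM in Mitf nerves (log2 difference 0.41, SE 0.248), a narrow separation. Bst2 was at 7.79, 31.2 and 8.11 CPM against 10.7, 9.19 and 8.89 CPM (-0.70, SE 0.564), where the mean of Egr2Cre rests on replicate 2. In Egr2Cre Mitf against Mitf nerves with no age given, edgeR called 0 of 30 tested members and 0% of all genes. DESeq2 called no member. At an unadjusted p under 0.05 there were 1 member and 671 of all 15482 genes. Ddx58 was at 23.8, 21.4 and 16.2 CPM against 17.4, 14.2 and 15.1 CPM (0.39, SE 0.165), and Tap1 at 22.3, 19.1 and 17.0 CPM against 13.7, 16.1 and 17.9 CPM (0.29, SE 0.152), both with overlap.

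Set side by side across all 22 groups, the mean of log2(CPM + 2) over the 31 members was lowest in the nerves of postnatal days 4 to 21; the tables were scaled separately and their difference was not tested. It was 2.91 to 3.26 as group means in the 8 groups of postnatal days 4 to 21, 3.49 to 3.78 in the 4 groups of the Ndrg1 table and 3.81 to 4.25 in the 6 groups of the time course. Uninjured and injured Mitf nerves stood at 3.91 and 4.23, and the Egr2Cre Mitf and Mitf nerves with no age or injury label at 4.115 and 4.125, within the range of the time course. Within groups, single libraries stood apart. In Wild type nerves at 3 days replicate 1 was the highest for 26 of 30 members counted, and at 7 days replicate 2 was the highest for 25 of 29.

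**Figure D5:**
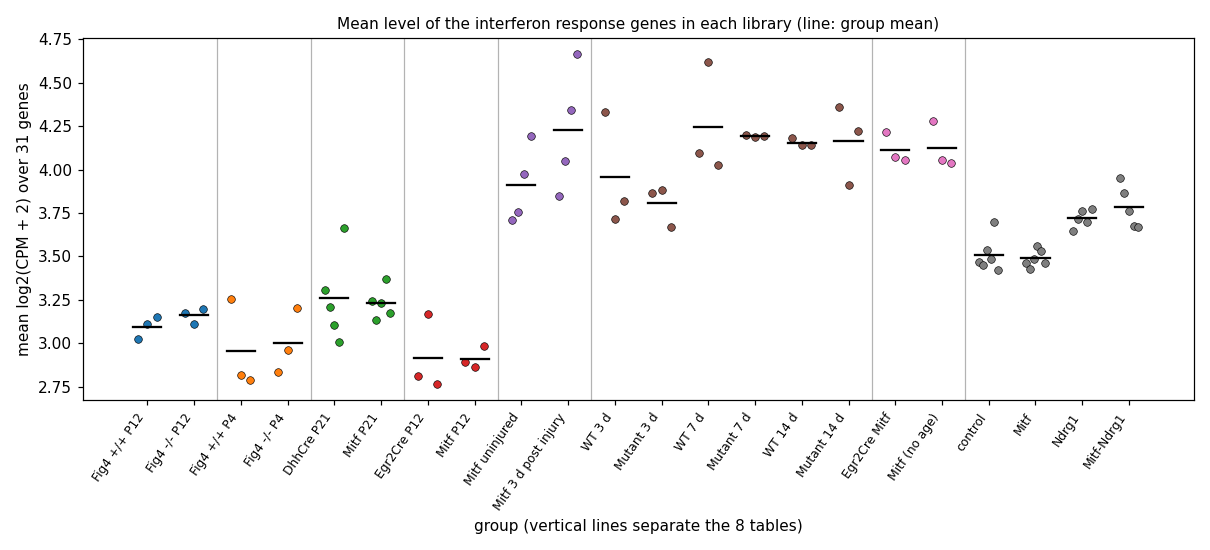
Mean of log2(CPM + 2) over the 31 members (vertical axis) in each of the 82 libraries, by group (horizontal axis), with a line at each group mean; vertical lines separate the 8 tables, which were scaled separately. The Ndrg1 and Mitf-Ndrg1 groups, at means of 3.72 and 3.78, stand above the control and Mitf groups of the same table, at 3.51 and 3.49, and 1 DhhCre library stands at 3.67 (postnatal day 21) above the other libraries of its group.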

How the data were processed

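Whole sciatic nerve RNA was sequenced by the submitters in 82 libraries, and the 8 deposited tables hold, for each gene, the authors' estimated counts, with kallisto and mm10 named in the submitters' processing notes; the annotation and the kallisto version were not given in the sources used here. Between 31.17% and 89.66% of the values in a library were whole numbers, so the deposited estimated counts were rounded before testing. Each table was analysed on its own in R 4.3.3 with edgeR 4.0.16: genes were kept by filterByExpr with a minimum count of 10, scaled with TMM factors and fitted with a robust quasi-likelihood model, with Benjamini-Hochberg adjustment over all genes kept and a threshold of 0.05. The tables with the time course and with the Ndrg1 nerves were each fitted with all their groups. CPM are TMM-scaled, and log2 levels use a pseudocount of 2 CPM. The SE of a log2 change was taken from the change and its F statistic.

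The 31 members and all companion and marker lists were chosen with earlier results of these data known. All members are accounted for; values in every library are given for up to 3 members that passed, by smallest p, in each comparison and direction, and for the 2 with the smallest p where none passed. Of each companion list up to 4 genes past the test with the smallest p could be named, besides Irf1 and Irf8; Socs1, Nlrc5 and Ifi204 were picked from such lists. The alternatives were RLE size factors, DESeq2 1.42.0, no low-count filter, a replicate block, the compared groups alone, a skeletal muscle marker covariate and leaving out each library; leaving out libraries above 50000 CPM (time course, 3 libraries) or 5000 CPM (postnatal day 4, 2 libraries) of muscle markers, and the covariate in the tables with several groups, were chosen after seeing the data. Same-numbered libraries deviated together in every pair of the DhhCre table (5 pairs, correlations 0.1193 to 0.2994) and of the Egr2Cre Mitf table (3 pairs, 0.1232 to 0.3395). Of these, 3 of 5 and 3 of 3 correlated best with the library of their own number. The numbers were taken to pair the libraries there, and the pairing comes from the data, not from the labels. The main fits and their SE left this pairing out, and only the replicate block used it. No pair of libraries in a group agreed within sampling noise (smallest chi-square per degree of freedom 9.607). The scripts were tested on simulated data, with 2-fold changes placed in genes above 1 CPM. Of these, 12% were recovered for Fig4 at postnatal day 4, and 13% and 24% for genotype by time at 14 and 7 days. For injury 33% were recovered, and for Ndrg1 against control 91%. A count of 0 members called therefore does not show that no member changed. A gene of the companion lists is not reported here. Promoter sequences are from the RefSeq table for GRCm38.p6.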

Additional observations from a re-analysis of the deposited data

Results flagged for a closer look

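The 64 sets checked were of groups of 4 to 10 libraries, for the mean over all members and for the members named by smallest p. In these, 2 libraries stood far from the rest of their group, where chance gives about 1 set in 20. Stat2 was at 24.78 CPM in control replicate 2 of the Ndrg1 table, and at 30.05 to 33 CPM in the other control libraries. Igtp was at 9.516 CPM in Mitf-Ndrg1 replicate 5, and at 11.73 to 12.66 CPM in the other Mitf-Ndrg1 libraries. What set these libraries apart was not tested.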

How the results depend on the processing

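Of the 97 pairs of a member and a comparison that passed, 63 passed under every alternative run, 73 under every alternative other than leaving out a library, and 0 changed direction. The numbers of members called moved by over 1.5 times in these cases, whose causes were not tested. With DESeq2, 1 was called for Fig4 at postnatal day 12 (0 in edgeR), 7 for injury (4), 4 for Wild type 14 against 7 days (1), 6 for Mitf-Ndrg1 against Ndrg1 (0) and 3 for the Mitf by Ndrg1 interaction (0). The shares of all genes called by DESeq2 are not given here, so these counts set the members apart from no other genes. Without the low-count filter, 1 was called for Fig4 at postnatal day 12, 3 for Mutant against Wild type at 14 days (5) and 0 for Wild type 14 against 7 days. With RLE scaling, 3 were called for Mutant against Wild type at 14 days. With the skeletal muscle covariate, 2 were called for injury, 4 for Mutant 14 against 7 days (2) and 4 for genotype by time at 14 days (0). With the compared groups alone, 0 were called for Mutant 14 against 7 days and 0 for Mutant against Wild type at 14 days. Without the muscle-rich libraries, 0 were called for Wild type 14 against 7 days and 0 for Mutant against Wild type at 14 days.

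Leaving out each library in turn gave 0 to 1 calls for Fig4 at postnatal day 12 (1 without Fig4 -/- replicate 3), 2 to 7 for injury, 6 to 11 for Wild type and 6 to 11 for Mutant 7 against 3 days (9 and 12 with all libraries; lowest without Mutant 3 day replicate 3), 0 to 1 for Wild type and 2 to 3 for Mutant 14 against 7 days, 0 to 8 for Mutant against Wild type at 14 days, and 0 to 2 for genotype by time at 14 days (2 without Mutant 14 day replicate 2). It gave 19 to 21 for Ndrg1 and for Mitf-Ndrg1 against control, 19 to 22 for Mitf-Ndrg1 against Mitf, 0 to 1 for Mitf-Ndrg1 against Ndrg1 (1 without Ndrg1 replicate 3 or Mitf-Ndrg1 replicate 1 or 5) and 0 to 1 for the interaction (1 without Mitf-Ndrg1 replicate 5); the other comparisons stayed at 0.

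With the replicate number as a block, 1 member was called for Mutant against Wild type at 14 days (5 without it), and no other count moved by over 1.5 times; in the paired DhhCre and Egr2Cre Mitf tables the count was 0 with and without the block. In the other tables the correlations of same-numbered libraries went down to -0.6825, in the Fig4 table of postnatal day 4. In the injury table they were 0.009757 to 0.1709, and 3 of 4 libraries correlated best with the library of their own number. Xist there was at 306.9 and 181.9 CPM in replicate 4 of the uninjured and injured nerves and at 0 CPM in the others. Whether the numbers pair the injury libraries was not settled. Members below 1 CPM, such as Mx1 and Mx2 in the time course, rest on few counts. The members' median log2 change moved by more than the spread between replicates in 14 of 185 fits without a library, 5 of 21 with the muscle covariate and 2 of 10 without the muscle-rich libraries. Among these fits it turned sign for Fig4 at postnatal day 12 (0.03; -0.06 without Fig4 -/- replicate 3), for Mitf against Egr2Cre (-0.01; 0.22 without Egr2Cre replicate 2), for Wild type 14 against 7 days (-0.12; 0.18 with the covariate, 0.11 without 7 day replicate 2), for Mutant 14 against 7 days (-0.03; 0.34 with the covariate), for Mutant against Wild type at 3 days (-0.23; 0.06 without Wild type replicate 1) and at 7 days (-0.09; 0.19 without Wild type replicate 2), and for both genotype by time tests without Wild type 3 day replicate 1 (0.17 to -0.09 and 0.25 to -0.13).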

Other observations

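Some members fell into separate levels within groups, and this is given as values only. Xaf1 was at 80.56 and 83.05 CPM or at 84.9 and 85.28 CPM in replicates 1 and 2 of the DhhCre and Mitf nerves of postnatal day 21, and at 8.73 to 14.86 CPM in the other 6 libraries of that table. In the injury table Xaf1 was at 88.64 and 86.06 CPM in replicate 4 of the uninjured and injured nerves and at 22.28 to 29.88 CPM in the other 6 libraries. In Mutant nerves 7 days after injury it was at 27.92, 137.1 and 109 CPM.

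Replicate 1 of both groups of the Egr2Cre Mitf table was the highest library of its group for 22 and 23 of 30 members, and replicate 4 of both groups of the injury table for 20 and 19 of 31. Ifi27l2a ranged from 29.56 to 164.7 CPM among the 6 libraries of the Egr2Cre Mitf table. Per kilobase of exon, Ifi27l2a reached a mean of 1441 CPM in Wild type nerves 14 days after injury.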
